A study of Rattus norvegicus with 9 samples.

Results

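The secreted Wnt antagonists examined here were 8 genes taken as a family by name: Sfrp1, Sfrp2, Sfrp4, Sfrp5, Frzb, Wif1, Dkk1 and Dkk3. They were chosen with earlier results of these data known. Of these, 7 were among the 14217 genes with a named probe set, through 15 of the 31042 probe sets, and Dkk1 is only named here. Only 6 of the 15 probe sets, from 5 genes, were bright enough on average to pass the filter on dim signals. The signals came from pancreatic islets of male Wistar rats, 7 weeks old when the diets began, after 30 days on a cafeteria diet with 66% of its calories as fat (5 arrays) or on standard chow with 8% (4 arrays). All rats were caged singly. The islets were freed with collagenase, purified on a density gradient and picked by hand, and each array held an independent sample, hybridised to a single-colour Affymetrix rat genome array. The series sets the islets of diet-induced obese rats against those of lean rats, with Sfrp5 as the gene in its title. Diets were read from the sample titles. In all 9 samples a separate label for the diet names the other diet, and by that label every difference below would change its sign.

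Wnt proteins are secreted lipid-modified ligands that bind Frizzled receptors and, for the beta-catenin branch, the co-receptors Lrp5 and Lrp6. Secreted Frizzled-related proteins, to which Sfrp1, Sfrp2, Sfrp4, Sfrp5 and Frzb belong, carry a cysteine-rich domain like that of Frizzled and bind Wnt ligands outside the cell, as does Wif1 through a domain of its own. Dkk1 instead binds Lrp5 and Lrp6 and blocks the co-receptor, whereas Dkk3 is a divergent Dickkopf protein. In mice, Sfrp5 is known as a protein secreted by fat cells that opposes Wnt5a.

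The arrays carried the label's tissue. The summed signal of 11 endocrine marker genes, among them the insulin genes and Iapp, lay between 236045 and 332470 on the cafeteria arrays and between 225707 and 323653 on the standard arrays. The trimmed mean of every array was 500, and array medians lay between 147 and 167. Genes of unrelated tissues (sperm, retina, lens, milk, enamel and others) gave the size of signal that a probe set can show without its tissue. Over 21 such probe sets and 9 arrays their median signal was 17.7, the 95th percentile 87.7 and the highest 139. Members within that range cannot be read as expressed. Probe sets bind their targets with unequal strength, so the order of the signals is not the order of the transcripts.

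The stretch upstream of Sfrp5 is printed because Sfrp5 had the largest log2 fold of the 15 probe sets. It is the 250 bases before the RefSeq start of Sfrp5, chr1:250960513-250960762 on the minus strand of rat build GRCr8, written 5′ to 3′, with the letters CTTTG, read on either strand, in capitals. CTTTG is the core that TCF and LEF proteins, the nuclear partners of beta-catenin, bind.
Sfrp5: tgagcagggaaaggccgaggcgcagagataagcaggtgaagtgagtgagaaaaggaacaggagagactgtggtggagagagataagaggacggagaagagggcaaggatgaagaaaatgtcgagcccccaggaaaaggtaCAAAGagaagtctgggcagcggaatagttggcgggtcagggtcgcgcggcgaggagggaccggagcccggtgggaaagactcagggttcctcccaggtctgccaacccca
The window held 1 match, on the opposite strand and 110 bases upstream of the start, and 48.2% of 33469 such windows over all RefSeq genes in the table held at least 1. The longer letters CTTTGAA or CTTTGAT, searched on both strands and containing the shorter motif, were not in the Sfrp5 window and were in 7.58% of all windows. Of the 8 members, 5 had a promoter entry. Frzb had 1 match of CTTTG, Dkk1 had 4, of which 1 was part of the longer letters, and Sfrp2 and Wif1 had none. The Wif1 window, chr7:58433329-58433578, lay inside the listed span of the gene, which starts at 58433326. The Frzb window, chr3:85772097-85772346, overlapped its gene's span, which ends at 85772168. These windows are therefore not wholly upstream of the listed genes, as that of Sfrp5 is. The GC content of the Sfrp5 window was 58.0%, against a median of 51.2% over all windows.

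Sfrp5, a soluble decoy for Wnt ligands, had lower signals in islets of cafeteria-fed rats than in those of standard-fed rats. Its only probe set, 1393069_at (the gene spans chr1:250956050-250960512), read 192, 71.25, 20.3, 97.3 and 29.0 on the cafeteria arrays of replicates 1 to 5, against 173, 203, 181 and 197 on the standard arrays of replicates 1 to 4. Cafeteria replicate 1 sat within the range of the standard arrays, and the other 4 cafeteria arrays lay below all of them. The mean signal was 82.0 ± 69.1 in cafeteria islets (SD, n = 5) and 188.6 ± 14.0 in standard islets (SD, n = 4), so the spread between rats was also wider on the cafeteria diet. The signals of those 4 arrays, between 20.3 and 97.3, lay within the range of genes of unrelated tissues, and the standard arrays lay above it.

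On the log2(signal + 16) scale the difference was -1.35, with a standard error of 0.42 and a 95% interval from -2.26 to -0.43. The exact two-sided permutation test over all 126 splits of the 9 arrays gave p = 0.0397, where 0.0079 is the smallest p the design allows. Sfrp5 was chosen with earlier results of these data known, so this p is not that of a gene fixed beforehand. Across the array, the limma fit gave Sfrp5 an unadjusted p of 0.00709 and an adjusted p of 0.839 (Benjamini-Hochberg over 18625 tested probe sets), so it did not pass. By unadjusted p it stood at rank 128, and 12 tested probe sets had a more negative log2 fold. No tested probe set passed an adjusted p of 0.05 (limma, 0.00%), the lowest being 0.228. At an unadjusted limma p under 0.05, 5.80% passed, and 5.50% passed at an exact permutation p under 0.05. Sfrp5 was in the tested set through the standard arrays, since the mean signal on the cafeteria arrays was under the 91.1 that the filter on dim probe sets corresponds to. The exact permutation p was between 0.0714 and 0.0893 for 8 of the 9 omissions of 1 array, with differences between -1.47 and -1.06, and 0.0286, with a difference of -1.69, without cafeteria replicate 1. Each omission leaves fewer splits, 70 or 56 in place of 126, and 0.0286 is the smallest p that 4 arrays against 4 allow. In whole islets, fewer cells of a type and less RNA per cell cannot be told apart.

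**Figure D1:**
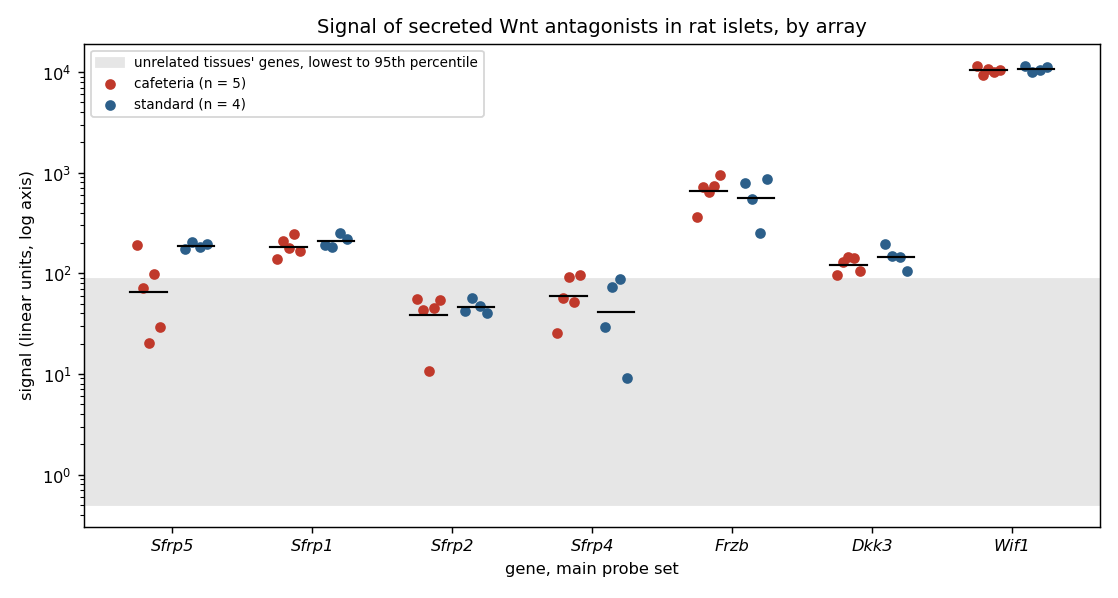
Signal of the main probe set of each of 7 secreted Wnt antagonists on each array, on a log axis. Cafeteria arrays are left of standard arrays, with horizontal bars for group means. The grey band runs between 0.5 and 87.7, the lowest value and the 95th percentile of the signals of genes of unrelated tissues. The range used in the text reaches higher, up to their highest signal of 139. Sfrp5 shows 4 cafeteria arrays below all 4 standard arrays and cafeteria replicate 1 among them, while the groups of the other 6 genes overlap.

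The beta-actin 3′-to-5′ ratio moved with Sfrp5 within the cafeteria group. This ratio of the beta-actin control probe sets, which is higher in more degraded RNA, was 2.80, 3.75, 5.63, 3.24 and 4.59 in cafeteria replicates 1 to 5, against 4.84, 3.82, 3.36 and 3.00 in standard replicates 1 to 4. The order of the 5 cafeteria arrays by Sfrp5 signal was the reverse of their order by this ratio. Among the standard arrays, replicate 1 had the highest ratio and, at 173, the lowest Sfrp5 signal, while the other 3 were not in reverse order. The GAPDH 3′-to-5′ ratio was 1.32, 1.38, 1.53, 1.29 and 1.62 in cafeteria replicates 1 to 5, against 1.64, 1.60, 1.48 and 1.30 in standard replicates 1 to 4. It ordered the standard arrays as the beta-actin ratio did. In the cafeteria group its order differed only in that replicates 1 and 4 changed places, as did replicates 3 and 5. With the log2 beta-actin ratio as a covariate, an alternative chosen after seeing the data, the log2 fold of Sfrp5 was -1.22 (limma adjusted p = 0.559). Another alternative, also chosen after seeing the data, left out 3 arrays. These were cafeteria replicate 3 and standard replicate 1, with the highest beta-actin ratio of their groups, and standard replicate 3, with high leukocyte genes. Cafeteria replicate 5 was kept, although its ratio of 4.59 was near the 4.84 of standard replicate 1 and its Sfrp5 signal was 29.0. The log2 fold of Sfrp5 was then -1.14, with an exact permutation p of 0.2, while 4 arrays against 2 cannot go below 0.0667. The part of RNA quality in the Sfrp5 result was not tested beyond these fits.

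**Figure D2:**
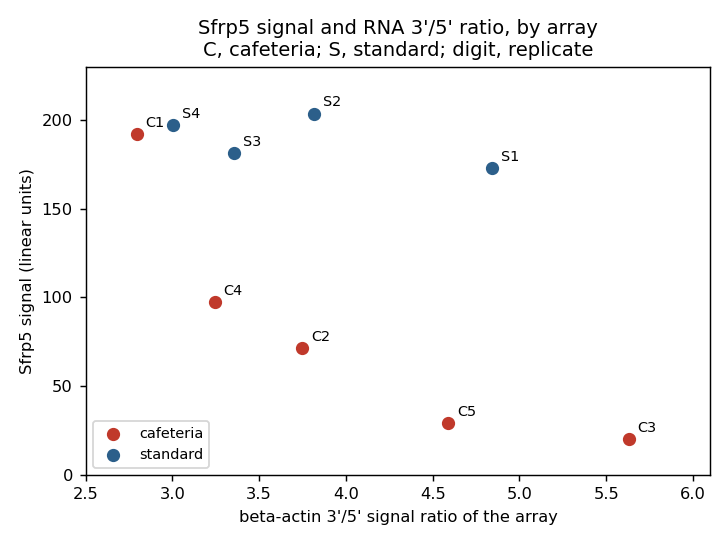
Sfrp5 signal (vertical) against the beta-actin 3′-to-5′ ratio (horizontal, higher in more degraded RNA), with 1 point per array and the cafeteria group first in the legend. In the cafeteria group the signal runs between 192 at a ratio of 2.80 and 20.3 at a ratio of 5.63, while the 4 standard arrays stay between 173 and 203 over ratios between 3.00 and 4.84.

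Among the other Frizzled-related proteins, no probe set passed the limma fit or the exact permutation test. Sfrp1, which binds Wnt ligands and is widely expressed in connective tissue, read 138, 208, 178, 244 and 166 on the cafeteria arrays, against 190, 181, 251 and 217 on the standard arrays (probe set 1371861_at). The groups overlapped, with means of 186.9 ± 40.9 in cafeteria (SD, n = 5) and 209.6 ± 31.5 in standard islets (SD, n = 4). The log2 fold was -0.17 with a 95% interval from -0.58 to 0.25 (limma adjusted p = 0.914; exact permutation p = 0.349). This interval does not reach the -1.35 estimated for Sfrp5, but it overlaps the interval of Sfrp5, from -2.26 to -0.43. The difference between both log2 folds had an exact permutation p of 0.0794. Its other probe sets, 1383266_at and 1382878_at, were too dim for the test, with log2 folds of 0.18 and -0.45.

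Frzb, the family member first described in cartilage, was clearly above the unrelated-tissue signals. Probe set 1375961_at read 360, 711, 645, 744 and 936 on the cafeteria arrays, against 797, 547, 250 and 868 on the standard arrays. The lowest of all was standard replicate 3, and the groups overlapped. The log2 fold was 0.22, with a 95% interval from -0.50 to 0.93 (limma adjusted p = 0.937; exact permutation p = 0.603), and it was -0.15 without standard replicate 3. The second probe set, 1373615_at, followed the first over the 9 arrays (Pearson r = 0.89, a description) and had a log2 fold of 0.33 (limma adjusted p = 0.859; exact permutation p = 0.246).

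Sfrp2 and Sfrp4 were dim. Sfrp2, which is produced by fibroblasts in many tissues, read 55.1, 43.5, 10.6, 45.1 and 54.2 on the cafeteria arrays, against 41.7, 57.1, 47.4 and 40.7 on the standard arrays (probe set 1390119_at). Apart from the low value of cafeteria replicate 3 the groups shared 1 range, and all 9 values lay within the range of genes of unrelated tissues. The log2 fold was -0.20 with an interval from -0.92 to 0.53 (exact permutation p = 0.802), and 0.07 without cafeteria replicate 3. The second probe set, 1396614_at, had a log2 fold of 0.20 (exact permutation p = 0.651).

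The probe sets of Sfrp4, another Frizzled-related protein, gave opposite signs. For 1388021_at the signals were 25.7, 57.0, 92.0, 51.4 and 96.7 on the cafeteria arrays, against 29.2, 72.5, 87.2 and 9.19 on the standard arrays, a log2 fold of 0.42 (interval from -0.53 to 1.37; exact permutation p = 0.421), which was 0.03 without standard replicate 4. For 1368394_at the signals lay between 7.28 and 53.4 on the cafeteria arrays and between 51.7 and 90.7 on the standard arrays, with 4 of 5 cafeteria arrays not reaching any standard array, and the log2 fold was -0.74 (exact permutation p = 0.0873). Over the 9 arrays the pair had a Pearson r of -0.41. Both sets of signals lay within the range of unrelated-tissue genes, and the direction of Sfrp4 is not settled by them.

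Wif1, the inhibitor that binds Wnt ligands through its WIF domain, was the brightest member, at the 99th percentile of all probe sets. Probe set 1369203_at read 11390, 9396, 10709, 10034 and 10570 on the cafeteria arrays, against 11473, 9897, 10383 and 11128 on the standard arrays. The groups overlapped almost fully, with means of 10420 ± 749 in cafeteria (SD, n = 5) and 10720 ± 713 in standard islets (SD, n = 4). The log2 fold was -0.04, with a 95% interval from -0.24 to 0.15 (limma adjusted p = 0.960; exact permutation p = 0.556). Wif1 had the narrowest interval of the 15 probe sets, and it does not include a change of the size seen for Sfrp5.

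Dkk3, the divergent Dickkopf protein, read 97.1, 130, 144, 140 and 104 on the cafeteria arrays, against 194, 147, 144 and 105 on the standard arrays (probe set 1370328_at). The groups overlapped, standard replicate 1 was the highest, and several values lay within the range of unrelated-tissue genes. The log2 fold was -0.22 with an interval from -0.68 to 0.25 (limma adjusted p = 0.890; exact permutation p = 0.206). Of the 3 other Dkk3 probe sets, all under the filter, 1394655_at had groups that did not overlap, at 1.79 to 4.48 on the cafeteria arrays and 6.45 to 14.5 on the standard arrays (log2 fold -0.41, exact permutation p = 0.00794, the smallest possible). Those signals are at the 1st percentile of the array and below the median of unrelated-tissue genes. The remaining probe sets, 1397754_at and 1377468_at, had log2 folds of -0.36 and 0.06. None of the 6 member probe sets that passed the filter had groups without overlap, against 1.76% of all those tested.

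**Figure D3:**
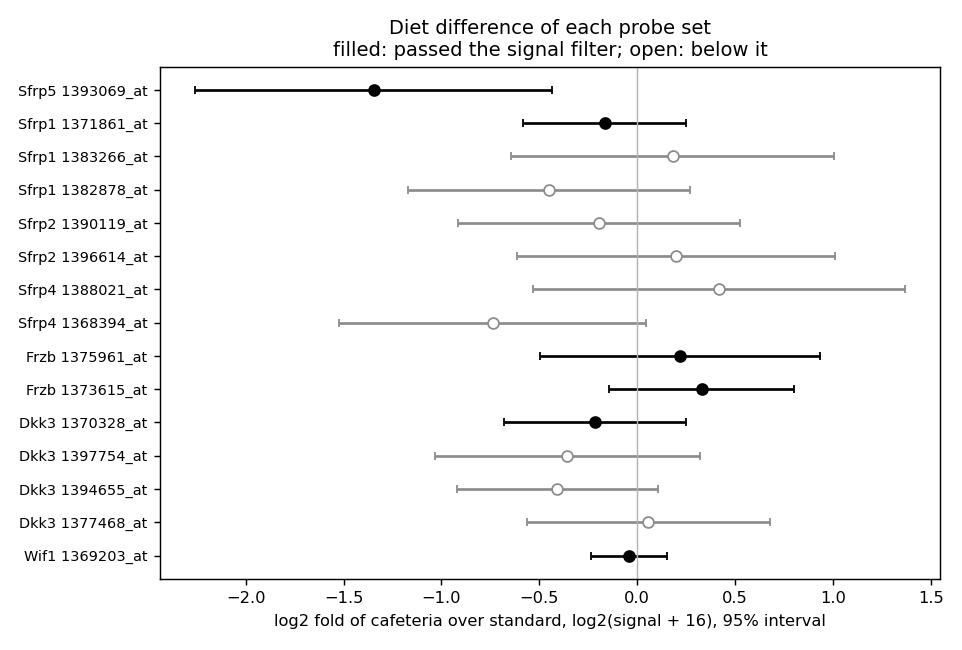
Log2 fold of cafeteria over standard islets, on the log2(signal + 16) scale, for each of the 15 probe sets of the secreted Wnt antagonists, with 95% intervals. The interval of Sfrp5, from -2.26 to -0.43, is the only 1 of the 15 that leaves out 0.

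Whether the difference in Sfrp5 was larger than that of each other member was tested on the log2 value of Sfrp5 minus that of the member on the same array, in 6 comparisons. Against Wif1 the mean was -7.02 ± 1.01 in cafeteria (SD, n = 5) and -5.71 ± 0.18 in standard islets (SD, n = 4), so the difference of the log2 folds was -1.30, with 4 of 5 cafeteria arrays below all standard arrays (exact permutation p = 0.0317). Against Sfrp1, Frzb and Dkk3 the differences of the log2 folds were -1.18, -1.56 and -1.13, with exact permutation p of 0.0794, 0.0952 and 0.103. Sfrp2 and Sfrp4 were not above the signals of unrelated-tissue genes, so their comparisons, with differences of -1.15 and -1.76, do not show whether Sfrp5 differed more than these genes did. The p-values are not adjusted, all 6 comparisons share the Sfrp5 values, and the members were chosen with earlier results of these data known. With 1 array left out, the exact permutation p against Wif1 was between 0.0536 and 0.0893, with differences between -1.44 and -1.01, except without cafeteria replicate 1. There it was 0.0286, the smallest that 4 arrays against 4 allow, with a difference of -1.61.

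In the rest of the Wnt pathway and among proliferation genes, log2 folds of both signs were found and no list had a called gene. Of 42 genes tested in 6 lists outside the family, none passed an adjusted p of 0.05 in the limma fit, and the median log2 fold of all tested probe sets was -0.009, with 51.9% lower. At an unadjusted limma p under 0.05, 2.79% of all tested probe sets were lower in cafeteria islets and 3.01% higher. Other extracellular antagonists had 2 of 10 listed genes tested, with log2 folds of -0.44 for Igfbp4, a binding protein of insulin-like growth factors that can also block Wnt receptors, and 0.16 for Apcdd1, a membrane-bound inhibitor.

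Of 19 Wnt ligand genes, 4 were tested, 3 of them lower and 1 higher, with a median log2 fold of -0.08. Wnt4, a ligand expressed in islet endocrine cells, read 7854 ± 489 in cafeteria and 8147 ± 1121 in standard islets (SD, n = 5 and 4), a log2 fold of -0.05. Wnt6 and Wnt1, both secreted ligands, had log2 folds of -0.44 and -0.12, and that of Wnt6 was -0.06 without cafeteria replicate 2. Wls and Porcn, which transport Wnt ligands and attach their lipid, had log2 folds of -0.19 and -0.13 and were the 2 tested genes of the agonist and export list.

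Of the receptors, 10 of 20 were tested, 7 lower and 3 higher, with a median log2 fold of -0.03. Lrp5, the co-receptor for the beta-catenin branch, read 265, 188, 123, 172 and 194 on the cafeteria arrays, against 232, 551, 433 and 208 on the standard arrays. Cafeteria replicate 1 was above 2 of the standard arrays, and the log2 fold was -0.79 ± 0.28 (SE; limma unadjusted p = 0.0151, adjusted p = 0.839). It was the only tested receptor under an unadjusted limma p of 0.05. Fzd1, a Frizzled named after its values were seen, was too dim for the filter, at 76.3 to 85.6 on the cafeteria arrays and 11.0 to 51.5 on the standard arrays. These signals did not overlap and lay within the range of unrelated-tissue genes (log2 fold 0.99, limma unadjusted p = 0.00702). Lgr4, the R-spondin receptor, and Fzd6, a Frizzled, had log2 folds of -0.24 and 0.21.

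Genes that beta-catenin switches on had 8 of 16 tested, 5 lower and 3 higher, with a median log2 fold of -0.08. Axin2, a negative-feedback target of the pathway, read 156, 172, 89.5, 167 and 134 on the cafeteria arrays, against 174, 235, 263 and 166 on the standard arrays (log2 fold -0.50 ± 0.22, SE; limma unadjusted p = 0.0409, adjusted p = 0.839). Tcf7, a TCF transcription factor that is also abundant in T cells, read 46.6 to 86.1 on the cafeteria arrays, against 215, 218, 1079 and 77.1 on the standard arrays (log2 fold -1.70 ± 0.52, SE; limma adjusted p = 0.839). The standard array with 1079 was replicate 3, where the summed signal of lymphocyte markers was also the highest, at 3202, and without it the log2 fold of Tcf7 was -1.04. Cd44, a cell-surface adhesion receptor, had a log2 fold of -0.38.

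**Figure D4:**
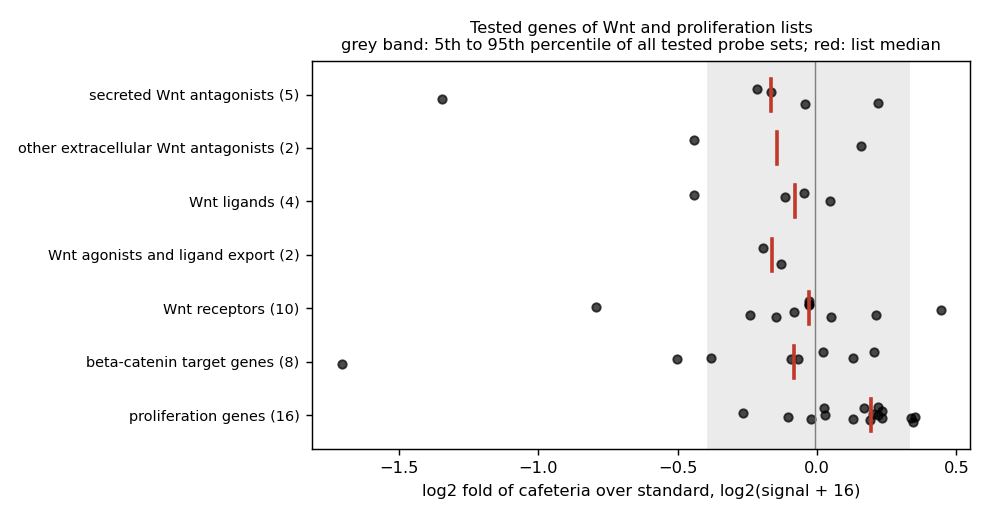
Log2 fold of cafeteria over standard islets for the tested secreted Wnt antagonists, Sfrp5 among them, and the tested genes of each Wnt pathway list and of the proliferation list. There is 1 point per gene, with the list's median. The medians run between -0.17, for the secreted Wnt antagonists, and 0.19, and proliferation genes have 13 of 16 points above 0.

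Proliferation genes had 16 of 18 tested, 13 higher and 3 lower in cafeteria islets, with a median log2 fold of 0.19 and none under an unadjusted limma p of 0.05. Bub1, a spindle checkpoint kinase, had a log2 fold of 0.34. Pcna, the sliding clamp of DNA polymerase, read 2130, 2768, 3083, 2496 and 2694 on the cafeteria arrays, against 2616, 2251, 2299 and 1980 on the standard arrays (log2 fold 0.20; limma adjusted p = 0.859). Top2a, a topoisomerase of dividing cells, read 161, 371, 325, 288 and 348 in cafeteria islets, against 261, 183, 284 and 183 in standard islets (log2 fold 0.34; limma adjusted p = 0.859). Cafeteria replicate 1, with the highest Sfrp5 of its group, had the lowest signal of both genes on the cafeteria arrays.

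Over all 9 arrays the log2 values of 15 of the 16 tested proliferation genes had a negative Pearson r with Sfrp5, with a median of -0.55 and -0.84 for Pcna, against 48.7% of all tested probe sets with a negative r and a median of 0.02. This summary was chosen after seeing the data and is a description: 5 arrays had Sfrp5 signals between 173 and 203 and 4 between 20.3 and 97.3, so the arrays do not spread evenly. The beta-actin ratio moved with both: cafeteria replicate 3, with the highest ratio, had the lowest Sfrp5 and the highest Pcna, and standard replicate 1, with the highest ratio of its group, had the lowest Sfrp5 and the highest Pcna of the standard arrays. Its part in this pattern was not tested.

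The genes whose pattern was most like that of Sfrp5 over the 9 arrays were Nalf2 (Pearson r = 0.961), Myo18a (0.960), Sox4 (0.956), Ank3 (0.952) and Pim2 (0.949). Those most opposite to it were Creb3 (-0.981), Jpt2 (-0.974) and Cenpf (-0.974). Myo18a, an unconventional myosin, read 650, 516, 300, 495 and 381 on the cafeteria arrays, against 557, 660, 677 and 603 on the standard arrays, which ranks the cafeteria arrays as Sfrp5 does apart from replicates 2 and 4. Creb3, a membrane-bound transcription factor, read 557, 777, 1097, 769 and 940 on the cafeteria arrays, against 637, 544, 622 and 559 on the standard arrays. The log2 folds of these 8 genes lay between -0.44 and 0.45, smaller than that of Sfrp5. For Sfrp5, 67 tested probe sets had an r above 0.9 and 82 below -0.9. The same counts were 80 and 34 for Sfrp2, 16 and 15 for Frzb, 8 and 6 for Dkk3, 4 and 4 for Wif1, 3 and 1 for Sfrp1 and 2 and 2 for Sfrp4.

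**Figure D5:**
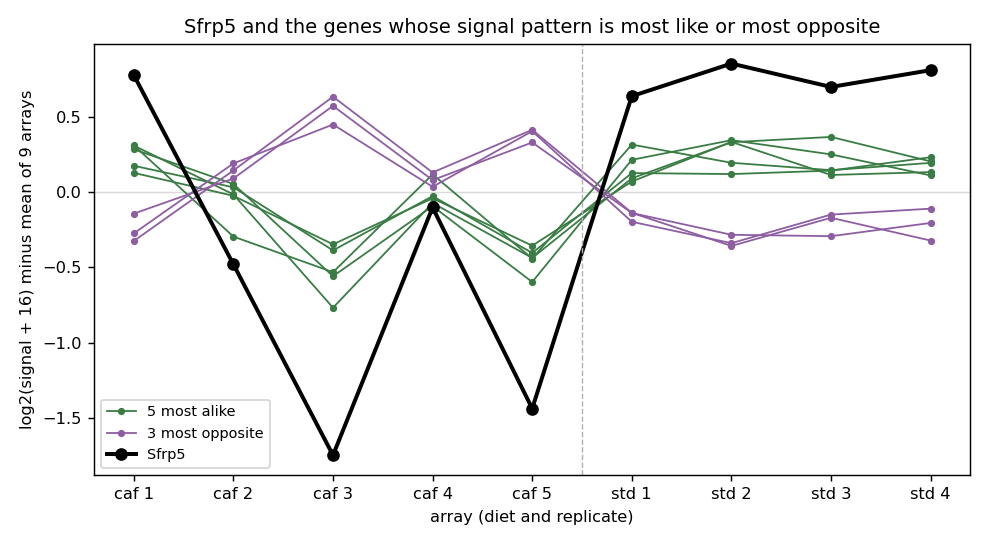
Log2 values, each minus its gene's mean over all arrays and not scaled by spread, array by array with the cafeteria arrays on the left. The lines are for Sfrp5, the 5 genes with the highest Pearson r with it (0.949 to 0.961) and the 3 with the lowest (-0.981 to -0.974). The first 6 lines dip together at cafeteria replicates 3 and 5, where the 3 opposite genes peak.

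Markers of other cells that islet preparations can hold were summed on each array. Fibroblast and stellate cell markers (11 genes, 6 higher and 5 lower) summed to between 8225 and 17285 on the cafeteria arrays and between 10857 and 13747 on the standard arrays. Macrophage markers, led by Cd74, were lower in cafeteria islets for 7 of 7 tested genes of 10, and their sum lay between 3348 and 5359 on the cafeteria arrays and between 5594 and 10686 on the standard arrays, without overlap. Cd74 made up much of that sum: the other 9 markers summed to between 1558 and 2717 on the cafeteria arrays and between 2378 and 3337 on the standard arrays, which overlap. Among them RT1-Da, C1qc and Csf1r had log2 folds of -0.79, -0.59 and -0.30, and Cd68, C1qa and C1qb of -0.004, -0.10 and -0.14. All of these except RT1-Da were named after their values were seen. Of the 7 tested genes, 3 were lower at an unadjusted limma p under 0.05, against 2.79% of all tested probe sets, and none passed after adjustment. The 3 were Cd74, RT1-Da and C1qc, while Cd68, C1qa, C1qb and Csf1r were not under 0.05. Cd74 and RT1-Da were highest on standard replicate 3, at 7348 and 1671, where the summed lymphocyte markers were also highest, at 3202. Which cells gave the difference was not tested. On cafeteria replicate 1, where Sfrp5 was as high as on the standard arrays, the sum of all 10 was 3486. Endothelial markers were lower for 7 of 8 tested genes (14042 to 16197 in cafeteria, 14856 to 16686 in standard islets), and acinar markers higher for 8 of 9 (2622 to 9375 in cafeteria, 3188 to 8832 in standard islets). At an unadjusted limma p under 0.05, 1 endothelial gene was lower and 0 higher. At the same threshold 2 acinar genes were higher and 0 lower, against 3.01% higher of all tested probe sets. None of these passed after adjustment. Duct markers were lower for 3 of 3 (3046 to 4448 in cafeteria, 3678 to 6983 in standard islets).

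Lymphocyte markers were lower for 2 of 2 tested genes (434 to 637 in cafeteria, 619 to 3202 in standard islets), and Schwann cell markers for 1 of 1 (1220 to 1409 in cafeteria, 1180 to 1924 in standard islets). Of 6 adipocyte markers, only Fabp4, which endothelial cells and macrophages also express, passed the filter, at 860 ± 175 in cafeteria and 968 ± 66.3 in standard islets (SD, n = 5 and 4). Adipoq, which defines fat cells, averaged 76.3 and 43.2 in cafeteria and standard islets, within the range of genes of unrelated tissues. No marker was listed at a signal of 0 on any array. The part of these cells in the Sfrp5 signals was not tested.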

How the data were processed

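Islet RNA from 5 cafeteria-fed and 4 standard-fed rats was measured on single-colour arrays. Each probe set has 1 deposited intensity value on a linear scale. Per the submitters' processing notes the authors used MAS5, of a version the sources do not give. After 57 control probe sets were removed, 31042 remained and were used without further scaling. The number of arrays limits the precision.

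Values of log2(signal + 16) were fitted by diet alone in limma 3.58.1 under R 4.3.3, with the variance following intensity. The Benjamini-Hochberg adjustment covered 18625 probe sets, those at or above the 40th percentile of mean log2 signal. Such fold changes understate the change of dim genes. Single values were compared by exact two-sided permutation (Python 3.11.15). The fit was tested on simulated data. The members and lists were chosen with earlier results of these data known. Gene symbols came from the supplied platform annotation. The probe set with the highest mean stands for a gene.

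Named genes are all members, up to 3 genes per pathway list with the smallest unadjusted p, up to 2 markers per cell type with the highest mean, and the 5 genes most like and 3 most opposite to Sfrp5; other marker genes named were chosen after their values were seen. Alternatives were other pseudocounts, filters and scalings, no trend, array weights, a replicate block, single-array omissions and other probe sets. The beta-actin covariate and the omission of 3 arrays were added after seeing the data. 1 further standard sample that the design text names was not analysed here.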

Additional observations from a re-analysis of the deposited data

Results flagged for a closer look

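In 3 of 30 groups of arrays (15 probe sets, both diets), the highest or lowest array stood far from the others of its group; chance gives about 1 in 20. On cafeteria replicate 3 the Sfrp2 probe set 1390119_at read 10.6, the lowest of its group. On standard replicate 4 the second Sfrp2 probe set, 1396614_at, read 32.7, the highest of its group. On cafeteria replicate 5 the Dkk3 probe set 1377468_at read 19.6, the highest of its group. All 3 signals are within the range of genes of unrelated tissues.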

How the results depend on the processing

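The limma adjusted p of Sfrp5 missed 0.05 under all 19 alternatives that tested it (0.389 to 1.0), and its log2 fold was negative in each (-1.69 to -0.91; -1.69 to -1.06 over single-array omissions); a filter at the 60th percentile removed it. Its exact permutation p was 0.0556 with quantile normalisation (log2 fold -1.32), 0.0635 with median centring (-1.30), and 0.2 without the 3 arrays (-1.14). Over single-array omissions the difference of the log2 folds ran from -1.62 to -0.90 against Sfrp1, -1.40 to -0.85 against Sfrp2, -2.32 to -1.35 against Sfrp4, -2.11 to -1.21 against Frzb, -1.61 to -1.01 against Wif1 and -1.54 to -0.79 against Dkk3. The exact permutation p against Sfrp1, Sfrp4, Frzb and Dkk3 was under 0.05 only without cafeteria replicate 1 (0.0286 each, the smallest that 4 arrays against 4 allow). Sfrp2 and Sfrp4 were not above the signals of unrelated-tissue genes, so comparisons with them test nothing about those genes. Without the 3 arrays it was 0.2 against Sfrp2 (-1.16) and Wif1 (-1.12), and with quantile normalisation 0.0714 against Wif1 (-1.24).

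Called probe sets over single-array omissions numbered 0 to 2; both calls came without standard replicate 2. Same-numbered arrays did not deviate together (r of -0.384, -0.053, -0.121 and 0.030), which cannot exclude that the numbers pair rats. With the replicate block, on 8 arrays, the log2 fold of Sfrp5 was -1.14 (limma adjusted p = 1.0).

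Signs turned with another probe set for Sfrp1 (0.180), Sfrp2 (0.198), Sfrp4 (-0.739) and Dkk3 (0.057). They turned over single-array omissions for Sfrp2 (-0.290 to 0.065), Wnt1 (-0.209 to 0.020), Porcn (-0.316 to 0.058), Wnt4 (-0.108 to 0.040) and Frzb (-0.152 to 0.426), with the block for Porcn (0.058) and with array weights for Wnt4 (0.009). Without the 3 arrays they turned for Sfrp2 (0.020), Frzb (-0.081), Wnt4 (0.067), Fzd6 (-0.060), Rgs5 (-0.074) and Fabp4 (0.018). Fewer arrays raise the smallest exact p; other causes were not tested.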
